A study of Mus musculus with 8 samples.

Results

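Gene deserts are long stretches of the genome that hold no protein-coding gene, and the accessible sites inside them were examined in MIN6 cells with and without a Klf4 expression plasmid. Chromosomes 1 to 19 and X were cut into windows of 1 Mb from the start of each chromosome, and a window counted as a gene desert when no protein-coding gene body of the GRCm38 annotation overlapped it. An accessible site (peak) was a member when its midpoint lay in such a window. The empty vector list held 1862 members of 100049 peaks on these chromosomes (1.86%) and the Klf4 list 1757 of 128499 (1.37%). The rule uses positions alone and no peak value, but it was chosen with earlier results of these data known. Of 281 windows without a coding gene, 60 were the first 3 Mb of the 20 chromosomes, where the annotation lists no gene and neither list has a peak. The other 221 windows, 221 Mb in all, are the gene deserts used for densities, and 2360 windows formed the rest.

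MIN6 is an established mouse insulinoma line that makes insulin and is used in place of primary beta cells. All 8 cultures were labelled wild type and transfected for 48 h with Lipofectamine 3000, a lipid reagent. In the controls the plasmid was the empty vector pcDNA 3 (4 libraries), and in the others it was pGloMyc-Klf4, which carries Klf4 (4 libraries). The labels do not give the share of cells that took up a plasmid, and the promoter that drives Klf4 is not given in the sources used here. Accessibility was measured by ATAC-seq, in which a transposase cuts and tags DNA that nucleosomes leave open, so that reads pile up over open sites.

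The names of the lists call them merged, so each measure has 1 value per plasmid and there is no spread between cultures and no test between plasmids. Intervals for shares are 95% Wilson intervals. For a ratio of counts, the Wilson interval of the Klf4 count's share in both counts together was converted to a ratio. Both reflect counting error alone, while peaks close together share their surroundings. The depth and the signal to noise of the libraries are unknown, and their parts in a difference of peak number cannot be told apart from that of the plasmid. In bulk cultures, more cells with an open site and a wider opening in each cell cannot be told apart either. Peaks overlapped the gene bodies of 10 of 10 beta cell marker genes, Ins1, Ins2 and Pdx1 among them, in both lists. Of 8 genes that mark other cells, 5 had an empty vector peak and 7 a Klf4 peak. Cd3e (T cells), Cdh5 (endothelium) and Krt5 (keratinocytes) had peaks in the Klf4 list only, and Alb (hepatocytes) in the empty vector list only. Presence of a peak does not measure cell number, and the part of other cells in the values was not tested.

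Gene deserts often lie between widely spaced developmental and neuronal genes. Their DNA is commonly poor in G and C, replicates late in S phase and lies near the nuclear lamina, where chromatin tends to be closed. Some deserts nevertheless hold enhancers, which are short stretches that bind transcription factors and act on a flanking gene over long distances. Long noncoding RNA (lncRNA) genes also lie in them, with promoters of their own. Klf4 is a zinc finger transcription factor that binds GC-rich and CACCC-type sites and can bind sites within closed chromatin.

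The only sequences of these deserts held in the reference tables are those of noncoding genes, so the lncRNA promoters under a peak are the sites that can be shown letter by letter. A promoter here is the 250 bases before and the first 50 bases of a transcript in RefSeq (GRCm38.p6). In the deserts 244 lncRNA genes had such a promoter, and peaks covered at least 1 base of 19 of them (7.79%) with the empty vector and of 17 (6.97%) after Klf4 transfection, 16 in both. The strength of a peak is given by its −log10 q, the peak caller's significance after correction for the number of tests, where larger means more significant. The 6 shown are the 3 covered ones with the highest −log10 q in the empty vector list (BC002059, Gm32624 and Gm4258), the empty vector-only one with the highest −log10 q (1110002O04Rik), the single Klf4-only one (Gm35481) and Gm32810, which besides Gm35481 was the only covered first-listed promoter with a Klf4-type word. Gm32810 was chosen after its values were seen. Each is written 5′ to 3′ along the gene, in lower case, and capitals mark matches to the searched words, here GGGTGTGG and GGGCGTGG (Klf4-type) and TAATTA (homeodomain).
BC002059: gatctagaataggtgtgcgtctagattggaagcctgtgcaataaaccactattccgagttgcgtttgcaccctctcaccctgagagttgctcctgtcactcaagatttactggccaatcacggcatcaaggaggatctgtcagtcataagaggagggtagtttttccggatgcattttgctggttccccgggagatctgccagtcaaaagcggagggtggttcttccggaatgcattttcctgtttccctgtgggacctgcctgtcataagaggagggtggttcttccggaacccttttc
Gm32624: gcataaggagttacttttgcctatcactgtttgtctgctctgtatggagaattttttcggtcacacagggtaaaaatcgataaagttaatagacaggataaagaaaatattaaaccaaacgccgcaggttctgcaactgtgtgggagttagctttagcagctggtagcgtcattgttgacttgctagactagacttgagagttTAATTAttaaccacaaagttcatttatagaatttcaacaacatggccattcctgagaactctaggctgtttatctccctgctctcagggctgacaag
Gm4258: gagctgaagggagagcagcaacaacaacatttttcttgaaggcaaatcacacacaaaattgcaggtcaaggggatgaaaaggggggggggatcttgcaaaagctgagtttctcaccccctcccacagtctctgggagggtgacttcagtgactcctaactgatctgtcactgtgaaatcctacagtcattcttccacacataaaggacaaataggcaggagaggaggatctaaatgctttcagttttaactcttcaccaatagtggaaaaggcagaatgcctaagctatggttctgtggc
Gm32810: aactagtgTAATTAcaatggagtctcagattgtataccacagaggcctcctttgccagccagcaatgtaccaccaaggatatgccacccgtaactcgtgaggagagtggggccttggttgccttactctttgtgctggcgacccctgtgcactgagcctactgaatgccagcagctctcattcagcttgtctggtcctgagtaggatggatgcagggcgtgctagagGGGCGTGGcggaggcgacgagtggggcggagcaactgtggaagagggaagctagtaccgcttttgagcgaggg
1110002O04Rik: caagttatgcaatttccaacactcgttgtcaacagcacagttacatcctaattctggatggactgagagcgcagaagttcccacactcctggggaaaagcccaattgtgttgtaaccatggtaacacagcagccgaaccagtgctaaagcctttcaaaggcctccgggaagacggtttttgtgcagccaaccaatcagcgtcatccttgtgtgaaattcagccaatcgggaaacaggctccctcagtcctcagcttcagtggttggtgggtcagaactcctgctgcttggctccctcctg
Gm35481: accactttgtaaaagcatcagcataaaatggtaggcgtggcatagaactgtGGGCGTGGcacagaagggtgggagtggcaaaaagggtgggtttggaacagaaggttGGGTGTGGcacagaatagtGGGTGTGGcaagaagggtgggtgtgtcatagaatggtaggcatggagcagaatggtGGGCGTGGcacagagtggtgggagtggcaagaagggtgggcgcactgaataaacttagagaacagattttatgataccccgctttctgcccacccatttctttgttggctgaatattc

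BC002059 starts in chr17:16951286-16951585 (plus strand), 53.7 kb from the nearest coding gene, and its peak at chr17:16951084-16951822 had the same edges in both lists, with −log10 q of 178 with the empty vector and 167 with Klf4. Gm32624 (chr16:86816659-86816958, plus) had 85.4 and 65.4, and Gm4258 (chr1:137898214-137898513, plus) had 59.2 and 44.8. All 3 promoters thus lay under a peak with either plasmid, and none of the 3 holds a Klf4-type word. At Gm32810 (chr1:112416869-112417168, minus), 552 kb from Dsel, the peak had −log10 q of 5.41 with the empty vector and 11.5 with Klf4. Covered promoters without a Klf4-type word also had higher values with Klf4, such as Gm34809 (3.59 and 12.1), Gm33450 (7.58 and 13.6) and 1110002J07Rik (26.8 and 28.5). The promoter of Gm35481 (chr2:171638963-171639262, minus) was covered by a peak with Klf4 alone, at chr2:171639006-171639307 with −log10 q of 5.0, and its letters hold 2 matches to GGGTGTGG and 2 to GGGCGTGG within a repeated unit. The promoter of 1110002O04Rik (chr1:35869698-35869997, plus) was covered with the empty vector alone, by a peak with −log10 q of 4.36. These last peaks are weak, and a peak just under the threshold in the other list would be listed in the same way.

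Desert lncRNA promoters under a peak were richer in G and C than those without one, and poorer than covered promoters elsewhere. The median GC content was 47.7% in the 20 genes with a peak in either list and 41.7% in the 224 without. It was 55.7% in covered lncRNA promoters of other windows and 61.3% in covered coding promoters. A word of the Klf4 or KLF type (GGGTGTGG, GGGCGTGG or CCCCACCC, on either strand) was found in the first-listed promoter of 2 of the 20 genes (10%), in 12 of the 224 (5.36%) and in 17.5% of all 26794 promoters in the table. TAATTA was found in 4 of the 20 (20%), 22 of the 224 (9.82%) and 5.27% of all promoters. TGANTCA (AP-1) was found in 2 of the 20 (10%), 31 of the 224 (13.8%) and 7.98% of all. A match is a run of letters and not a binding site.

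Coverage of lncRNA promoters outside the deserts was several times that inside, and it differed more between the lists. Of 9276 lncRNA promoters in other windows, 25.5% were covered in the empty vector list and 31.2% with Klf4, with 173 covered only with the empty vector and 700 only with Klf4. Coding promoters had 61.6% and 67.8% of 17274. In the deserts 3 were covered only with the empty vector (1110002O04Rik, Gm30382 and Gm36667) and 1 only with Klf4 (Gm35481). So the desert promoters showed no surplus with Klf4, on counts too small to give a direction.

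Deserts held fewer sites per megabase than other windows in both lists, and the gap was wider in the Klf4 list. The empty vector list had 8.43 peaks per Mb in deserts and 41.8 elsewhere, a 4.96-fold lower density. The Klf4 list had 7.95 and 53.9, a 6.78-fold lower density. Among the top 20000 peaks of each list the density was 12.6-fold lower with the empty vector and 16.7-fold lower with Klf4. The median desert window held 6 peaks with the empty vector and 5 with Klf4, against 36 and 43 in other windows. Few deserts were empty, as 213 of the 221 windows held at least 1 peak of either list. The sites were unevenly spread, and the fullest 22 windows held 32.5% of the empty vector members and 36.4% of the Klf4 members.

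The Klf4 list is the longer of the lists, but in deserts it had no more peaks than the empty vector list. The ratio of Klf4 to empty vector members was 0.944 (0.884 to 1.01), while outside deserts it was 1.29 (1.28 to 1.30). With windows of 500 kb in place of 1 Mb the member ratio was 1.01, still below the 1.30 outside them. Peak numbers per window showed the same. Klf4 peaks outnumbered empty vector peaks in 55 of the 213 desert windows with a peak (25.8%), against 66.7% of all such windows, and empty vector peaks were the more numerous in 111 (52.1%), against 23.3% of all. In the remaining 47 desert windows the numbers were equal.

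The deserts were the low end of a graded series rather than a class apart. With 0 coding genes in the window the ratio was 0.944, with 1 it was 0.994, with 2 it was 1.09 and with 3 to 5 it was 1.19. It went on to 1.26 with 6 to 10 genes, 1.39 with 11 to 20, 1.40 with 21 to 40 and 1.45 with 41 or more. The intervals of the windows with 0 genes and with 1 gene overlap, so counting error does not set deserts apart from the windows just outside the rule. When peaks under a −log10 q of 20 were left out, deserts again had the lowest ratio, 0.711 (0.598 to 0.847), against 0.855 in windows with 1 gene and 1.01 in those with 41 or more.

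**Figure D1:**
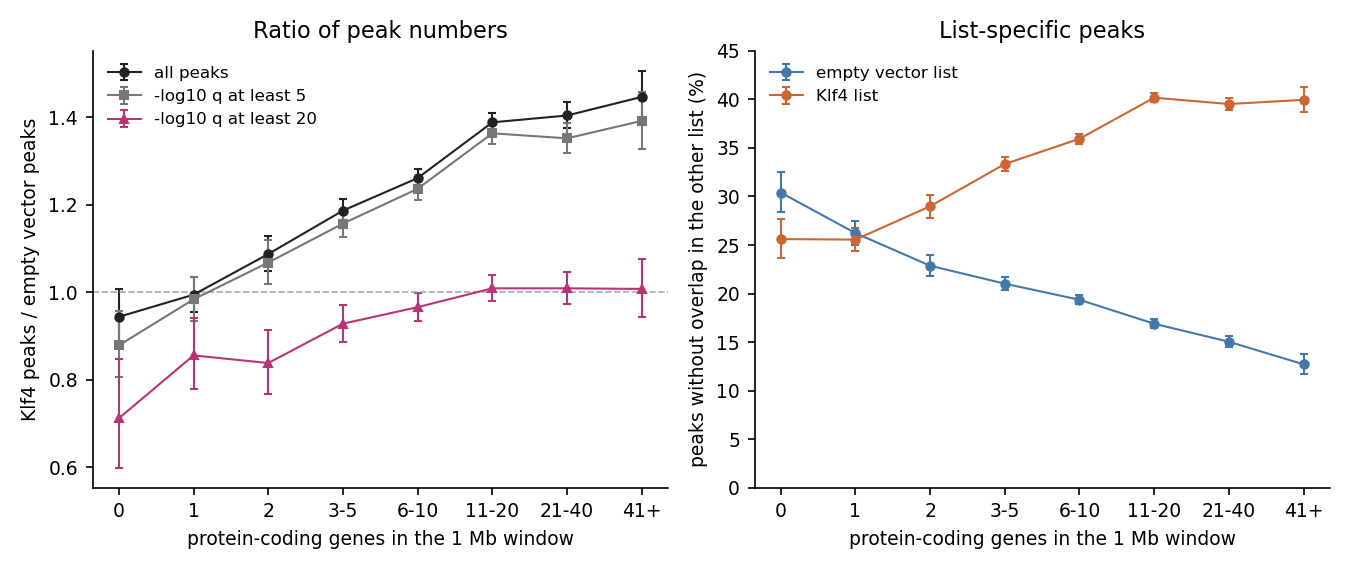
Ratio of Klf4 to empty vector peaks (left) and share of each list's peaks that no peak of the other list overlaps (right, in percent), by the number of protein-coding genes that overlap the 1 Mb window, with 95% intervals for counting error. Gene deserts are the group with 0 genes, where the ratio is 0.944, and the ratio is 1.45 in windows with 41 or more genes.

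The ratio was also lower far from coding genes than near them, inside deserts and outside them, though not at every step of distance. Members lay a median of 588 kb (empty vector) and 561 kb (Klf4) from the nearest coding gene, and the farthest lay 2266 kb away. Members at 10 to 100 kb were few, 43 with the empty vector and 58 with Klf4, a ratio of 1.35 (0.911 to 2.00), and other peaks at that distance had 1.33 (1.30 to 1.35). In this bin 44.8% of the Klf4 members (32.7 to 57.5) and 39.4% of other Klf4 peaks were list-specific, and 25.6% and 19.5% in the empty vector list. Members at 250 to 500 kb numbered 462 with the empty vector and 478 with Klf4, a ratio of 1.03, and peaks of other windows at that distance had a ratio of 1.04. Members at 500 to 1000 kb had 0.858 and those beyond 0.910, with overlapping intervals. At 500 kb or more the ratio was 0.874 (0.803 to 0.952) in deserts and 0.873 (0.769 to 0.991) elsewhere. At 10 to 100 kb and from 250 to 1000 kb, then, desert peaks and other peaks had like ratios. No peak elsewhere lay 1000 kb or more from a coding gene, so members beyond that distance had no comparison. At 100 to 250 kb members had 1.04 (0.860 to 1.25) and other peaks 1.23 (1.19 to 1.27).

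The pattern was seen across chromosomes. On each of the 19 chromosomes with members in both lists the ratio in deserts was below the ratio outside deserts of the same chromosome. It was below 1 on 15 of them and above 1 on chromosomes 2 (1.22), 5 (1.03), 13 (1.08) and 18 (1.07), while outside deserts no chromosome was below 1. Chromosome 19 had 5 members, all in the Klf4 list and none overlapped by an empty vector peak.

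Raising the threshold on −log10 q lowered the ratio of Klf4 to empty vector peaks in deserts and outside them. With −log10 q of at least 5 there were 967 Klf4 and 1101 empty vector members (0.878), at 10 there were 508 and 626 (0.812), and at 20 there were 217 and 305 (0.711). At 50 or more the counts were 53 and 76 (0.697), and at 100 or more 17 and 27 (0.630). Outside deserts the ratio at these thresholds went from 1.27 over 1.13, 0.976 and 0.841 to 0.696. Bins of −log10 q were not in that order, since the weakest, under 2, had 0.796 in deserts and 0.926 outside, and that from 2 to 5 had 1.13 and 1.52. A −log10 q depends on depth as well as on signal, so the lists can be compared at one threshold only with that limit, and the part of depth was not tested.

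Members were more often specific to the empty vector list, and less often to the Klf4 list, than the peaks outside deserts as a whole. No Klf4 peak overlapped 566 of the 1862 empty vector members (30.4%, interval 28.4 to 32.5), against 18.8% of the whole list and 18.6% outside deserts. No empty vector peak overlapped 450 of the 1757 Klf4 members (25.6%, 23.6 to 27.7), against 36.7% of the whole list and 36.9% outside deserts. The windows with 1 coding gene had a Klf4-only share of 25.6% (24.3 to 26.8), like the deserts, and an empty vector-only share of 26.2% (25.01 to 27.48). Peaks of other windows at 500 kb or more from a coding gene had a Klf4-only share of 17.9% (14.7 to 21.8), against 21.9% (19.4 to 24.5) of members at that distance. Their empty vector-only share was 28.0% (24.3 to 32.0), against 32.3% (29.7 to 35.1) of members at that distance, with overlapping intervals. Unlike the members, all of these other peaks lay under 1000 kb from a coding gene. Nothing particular to deserts is read from either share. The share of empty vector members without a partner was above that outside deserts on 19 of 19 chromosomes, and the share of Klf4 members without a partner was below it on 19 of 20. The exception was chromosome 19 with its 5 members. With both lists cut to their top 20000 peaks before matching, the Klf4 shares were 10.7% of 112 members and 12.7% outside deserts. The empty vector shares were 32.4% of 148 and 12.6%, but such a peak counts as unmatched when its partner was cut from the other list. Matched to the whole Klf4 list, 1 of the 305 empty vector members with −log10 q of at least 20 was list-specific (0.328%).

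Weak peaks go unmatched more often than strong ones, and members were weaker than other peaks, so the shares were set side by side at like −log10 q. Among empty vector peaks with −log10 q under 2, 80.6% of members and 62.3% of other peaks were list-specific, at 2 to 5 it was 51.6% and 38.9%, and at 5 to 10 it was 20.2% and 13.9%. From 10 to 20 the shares were 4.67% and 2.80%, with overlapping intervals, and above 20 there was 1 list-specific member. In the Klf4 list the order was the other way. Below 2, 48.8% of members and 66.2% of other peaks were specific to Klf4, at 2 to 5 it was 30.9% and 53.2%, at 5 to 10 it was 26.8% and 41.9%, and at 10 to 20 it was 14.1% and 30.0%. From 20 to 50 the shares were 6.10% and 11.8%, and at 50 or more they were 3.77% (2 of 53) and 0.756%, where 2 members give no direction. Against windows with 1 coding gene the differences were small. At −log10 q of at least 5 the Klf4-only share was 18.2% (15.9 to 20.8) of members and 16.7% (15.4 to 18.1) in those windows. The empty vector-only shares were 10.2% (8.52 to 12.1) and 8.01% (7.08 to 9.05). The intervals of deserts and windows with 1 gene overlap in both lists.

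**Figure D2:**
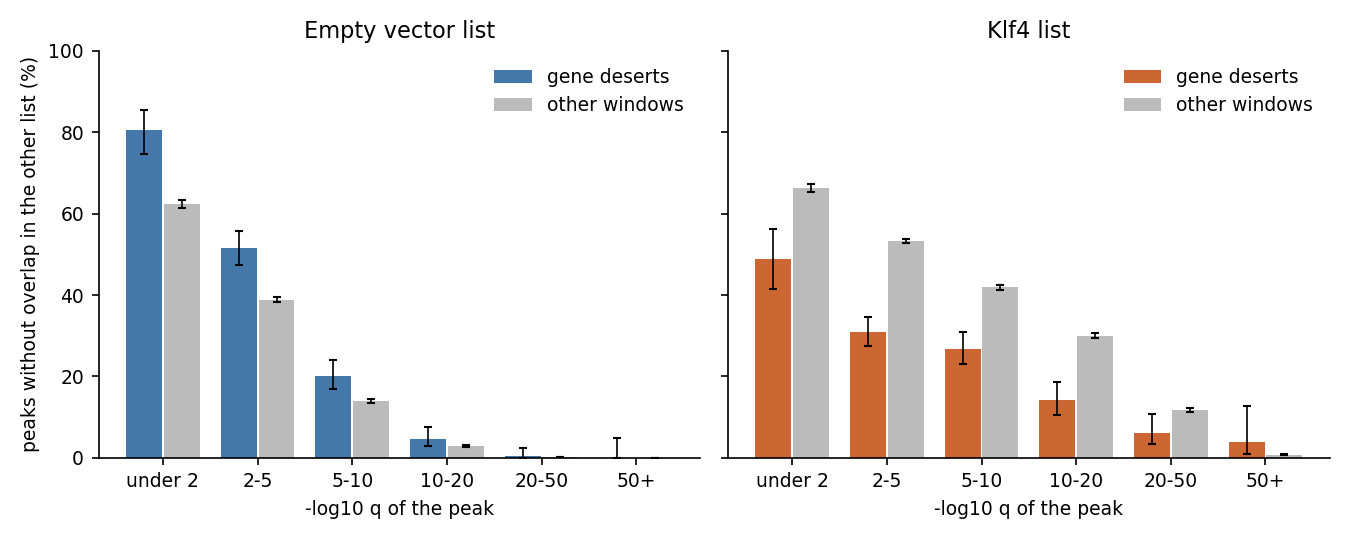
Share of peaks that no peak of the other list overlaps, in percent, by the peak's own −log10 q, for gene deserts and other windows, with 95% intervals; the empty vector list is on the left and the Klf4 list on the right. Below 10, desert peaks are above other peaks on the left (80.6% against 62.3% under 2) and below them on the right (48.8% against 66.2%).

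In both lists, desert sites were narrower and less significant than other sites. The median width in the empty vector list was 424 bp in deserts and 542 bp elsewhere, and in the Klf4 list 384 and 512 bp. The median −log10 q was 6.27 and 8.90 with the empty vector, and 5.78 and 7.65 with Klf4. Here too the deserts were the low end of a graded series. Windows with 1 coding gene had medians of 6.80 (empty vector) and 6.27 (Klf4), near those of deserts. The medians rose with the number of genes to 15.5 and 10.1 in windows with 41 or more. The authors' own fold enrichment (signal over local background) differed little, with medians of 4.13 in deserts and 4.24 elsewhere in the empty vector list and 3.98 and 3.92 in the Klf4 list. The sites also stood farther apart, as the median gap to the nearest peak of the same list was 16641 bp in deserts and 5689 bp elsewhere with the empty vector, and 15395 and 4095 bp with Klf4.

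Where both plasmids had a peak at the same desert site, the Klf4 peak was usually the narrower one. In 1277 pairs in which exactly 1 peak of each list overlapped, the Klf4 peak was wider in 429 (33.6%, 31.1 to 36.2) and the empty vector peak in 833. Over these pairs the median width was 504 bp (empty vector) and 438 bp (Klf4). Outside deserts the Klf4 peak was wider in 47.1% of 78521 pairs, and the medians were 621 and 633 bp. Peaks in deserts covered 946 kb with the empty vector and 842 kb with Klf4, a ratio of 0.890, against 1.28 elsewhere.

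Klf4-only sites made up a smaller share of Klf4 members in the longest deserts than in deserts of a single window. Windows without coding genes adjoined each other in 159 runs, of which 112 were a single window, 34 had 2 windows, 11 had 3 and 2 had 4. The ratio of Klf4 to empty vector members was 0.975 in single windows, 0.909 in runs of 2 and 0.867 in runs of 3 or 4, with overlapping intervals. The share of Klf4 members without an empty vector partner went from 28.4% (25.8 to 31.1) over 22.8% (18.9 to 27.2) to 17.4% (13.2 to 22.7). Intervals of neighbouring steps overlap, and the whole Klf4 list had 36.7%. The share of empty vector members without a Klf4 partner was 30.7%, 30.5% and 29.1%, against 18.8% of the whole list. All 4 windows with at least 10 more Klf4 than empty vector peaks are single windows. They held 83 of the 319 Klf4-only members of single windows.

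Genes of cell adhesion and axon guidance often flanked the long deserts. Of the 91 coding genes that flank the 47 runs of at least 2 windows, 25 (27.5%) belonged to the listed adhesion and guidance families, which make up 1.18% of all coding genes. Of the transcription factor families listed, 1 gene flanked such a run (1.10%, against 0.818% of coding genes). Cadherins (Cdh2, Cdh6, Cdh8, Cdh9, Cdh11 and Cdh20), protocadherins (Pcdh7, Pcdh9, Pcdh10, Pcdh17, Pcdh18, Pcdh19 and Pcdh20) and teneurins (Tenm2, Tenm3 and Tenm4) were among them. These counts describe the annotation and use no peak. The families were chosen by the start of the gene symbol.

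The longest run was chr18 from 26 to 30 Mb, between Celf4, which encodes an RNA-binding protein, and Pik3c3, a lipid kinase of autophagy. It held 41 empty vector and 38 Klf4 peaks. The run of equal length between the protocadherin genes Pcdh20 and Pcdh9 on chromosome 14 held 27 and 22. The 11 runs of 3 windows share the next place, and the 3 of them with the most peaks are described. The run between Dsel and Cntnap5a (a contactin-associated protein gene) held 41 and 33, with 9 peaks found only with the empty vector and 1 only with Klf4. That between Hace1, a ubiquitin ligase gene, and Grik2, a kainate receptor gene, held 28 and 22. That between D3Ertd751e and Pcdh10 held 30 and 20, with 11 and 1 list-specific peaks. The Klf4 list had fewer peaks in each of these 5 runs. Over all 13 runs of 3 or 4 windows it had fewer in 10 and more in 3, which held 5 empty vector and 7 Klf4, 20 and 23, and 17 and 19 peaks.

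Among the 5 runs with the most peaks, 3 had fewer Klf4 peaks and 2 had more, each of the latter a single window. The 3 with fewer were the Celf4 and Dsel runs and the Zfp608 window. The window at 133 Mb of chromosome 5, between Auts2, a gene of neuronal development, and Castor2, of the arginine-sensing family, held 45 empty vector and 60 Klf4 peaks, of which 9 and 23 were list-specific. The window at 35 Mb of chromosome 1, between Plekhb2 and Hs6st1, which encodes a heparan sulfate sulfotransferase, held 33 and 45, with 11 and 23 list-specific. The window at 55 Mb of chromosome 18, between the zinc finger gene Zfp608 and Gramd3, held 46 and 43.

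The largest surpluses of Klf4 peaks stood in few windows. In 4 windows the Klf4 list had at least 10 more peaks than the empty vector list, 167 against 109 in all, and these held 83 of the 450 Klf4-only members (18.4%). They were the Auts2 and Plekhb2 windows and those between Sall3 and Galr1 and between Dhx35 and Gm826. At Sall3, a zinc finger transcription factor gene, and Galr1, a galanin receptor gene, the counts were 18 with the empty vector and 37 with Klf4, 5 and 24 of them list-specific, and the length covered was 9864 and 22495 bp. At Dhx35, an RNA helicase gene, they were 13 and 25, with 1 and 13 list-specific. At the same limit of 10 peaks, 1 window had more empty vector peaks. At a limit of 5, 7 windows had more Klf4 peaks and 11 had more empty vector peaks. These 11 held 215 empty vector and 146 Klf4 peaks in all and 84 of the 566 empty vector-only members (14.8%). These windows were picked by their counts, and the counts are a description.

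**Figure D3:**
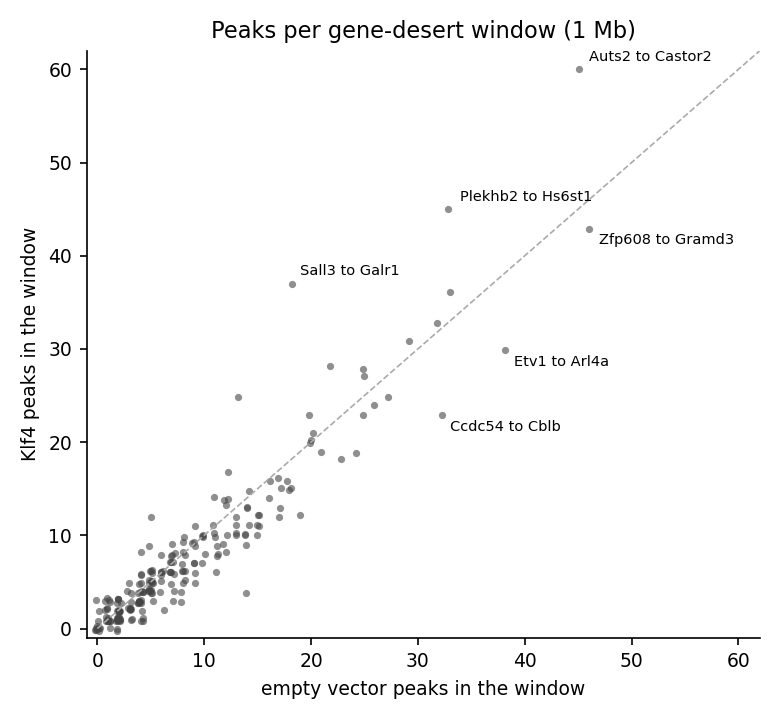
Peaks of the Klf4 list against peaks of the empty vector list in each of the 221 gene desert windows, with the line of equal numbers (points are shifted slightly so that they do not hide each other). Most windows lie on or under the line (111 have more empty vector peaks and 47 equal numbers), and a few stand well above it (18 against 37 peaks between Sall3 and Galr1).

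In each of these 4 windows the peak with the highest −log10 q belonged to a site present with both plasmids. In the Plekhb2 window that was chr1:35257478-35258100 in the empty vector list, with 94.5, whose Klf4 partner had 60.9. The highest peak of the Klf4 list in that window was specific to it, at 90.6. Between Sall3 and Galr1, the peak at chr18:81830761-81831760 had −log10 q of 60.6 in the empty vector list, and its Klf4 partner had 55.4. The strongest Klf4-only peak there, chr18:81968154-81968441, had 15.7 and lay 424 kb from Galr1. Between Auts2 and Castor2 the strongest pair, at chr5:133487664-133488526 in the empty vector list, had 75.9 and 52.0, and the strongest Klf4-only peak, chr5:133633217-133633551, had 16.3. Between Dhx35 and Gm826 the strongest pair, at chr2:159592814-159593311, had 62.5 and 42.3, and the strongest Klf4-only peak had 17.0.

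The window downstream of Myc, the gene of a transcription factor of cell growth, had like numbers in both lists. Between Myc and Gsdmc, a gasdermin gene, at 62 Mb of chromosome 15, there were 33 empty vector and 36 Klf4 peaks, with 4 and 7 list-specific, and they covered 20017 and 19957 bp. The strongest site, chr15:62902646-62903453 in the empty vector list, lay 913 kb from Myc and had −log10 q of 211, and its Klf4 partner had 147. The next, at chr15:62571698-62572370, had 64.8 and 44.8. The strongest Klf4-only peak of the window, chr15:62411589-62411879, had 13.8.

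Other deserts had more sites with the empty vector. Between Ccdc54 and Cblb, a ubiquitin ligase gene, at 51 Mb of chromosome 16, there were 32 empty vector and 23 Klf4 peaks, and 10 and 1 of them were list-specific. The strongest pair there, at chr16:51589650-51590525, had −log10 q of 99.0 and 57.1. Between Etv1, an ETS-family transcription factor gene, and Arl4a, at 39 Mb of chromosome 12, there were 38 and 30, with 15 and 7 list-specific, and the strongest pair (chr12:39028823-39029588) had 308 and 189. Between Slc4a3 and Epha4, an ephrin receptor gene, at 76 Mb of chromosome 1, there were 14 and 4, with 9 and 0 list-specific. The Myc, Ccdc54, Etv1 and Slc4a3 windows were singled out after their counts were seen.

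**Figure D4:**
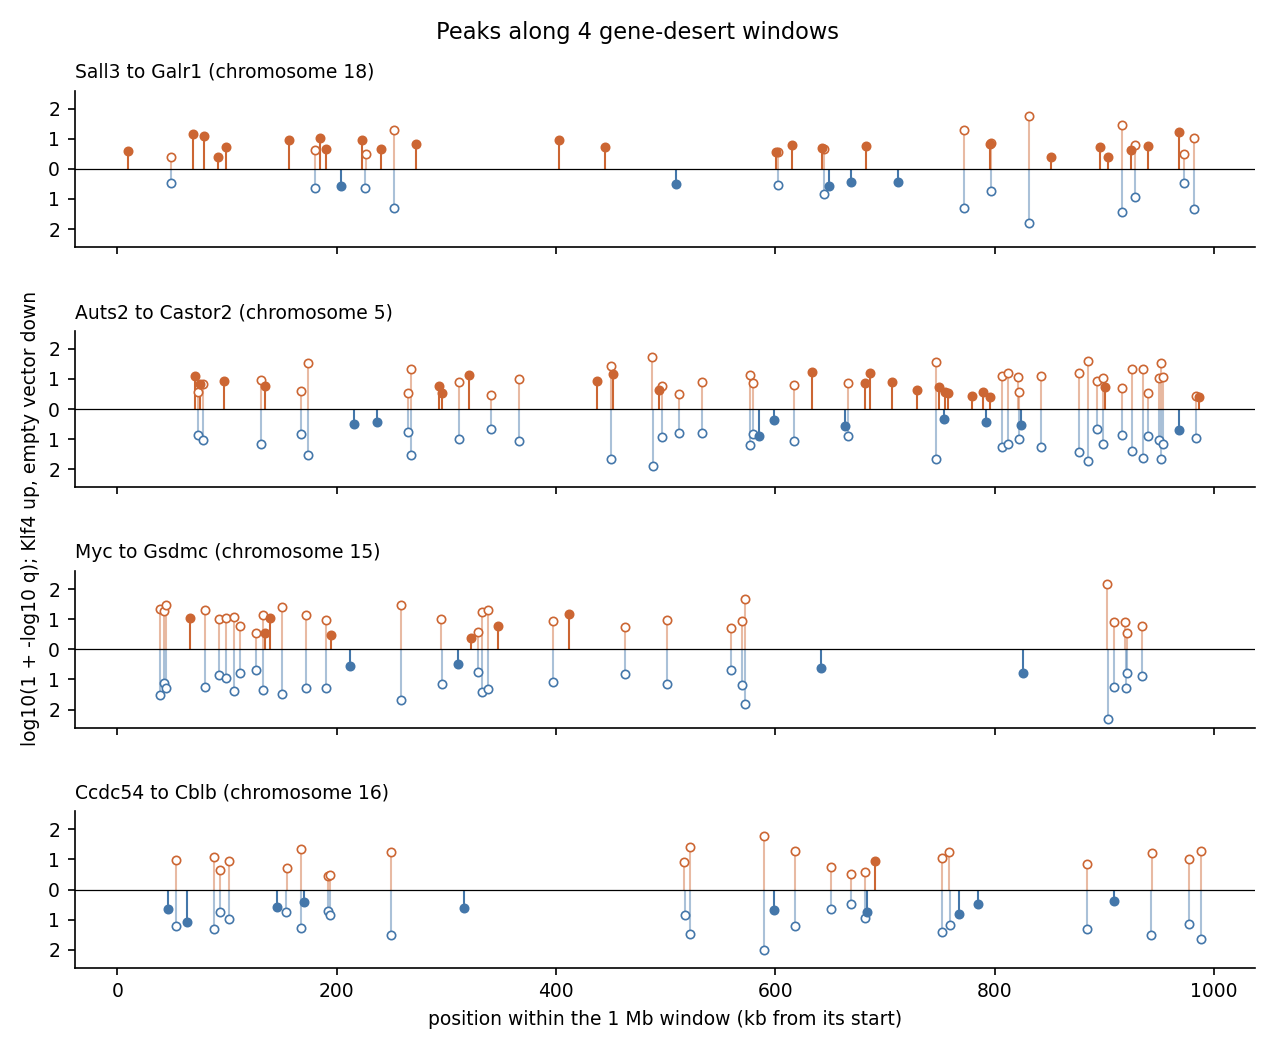
Peaks along single 1 Mb desert windows, as position within the window (kb, horizontal) and log10 of 1 plus the peak's −log10 q (vertical), with Klf4 peaks drawn upward and empty vector peaks downward. Filled marks are peaks that no peak of the other list overlaps and open marks are overlapped peaks; the window between Sall3 and Galr1 holds 24 list-specific Klf4 peaks and the window between Myc and Gsdmc 7.

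List-specific members were spread across the deserts, and no few windows accounted for most of them. They were 30.4% of the empty vector members, against 18.8% of that whole list, and 25.6% of the Klf4 members, against 36.7%. A total of 174 windows held an empty vector-only member, 144 a Klf4-only member and 122 both. The strongest empty vector-only member, chr17:82957540-82957722, between Slc8a1, a sodium-calcium exchanger gene, and Pkdcc, 258 kb from the latter, had −log10 q of 21.3, and the nearest Klf4 peak lay 8.34 kb away. The next were chr1:141056761-141056983 near Kcnt2, a potassium channel gene (18.9), and chr5:85657592-85657859 near Cenpc1, a centromere protein gene (16.5). Weaker still was chr18:28947040-28947228 in the Celf4 desert (12.6). The best rank of these in the empty vector list was 27528.

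Klf4-only members reached higher values. The strongest, chr1:35169011-35169526, lay 290 kb from Plekhb2, was 516 bp wide with a fold enrichment of 15.05, and had −log10 q of 90.6, rank 5123 of its list. The nearest empty vector peak lay 31.5 kb away. The second was chr3:149429649-149430178 between the adhesion receptor genes Adgrl2 and Adgrl4, where −log10 q was 61.0 and the fold enrichment 12.9. The third, chr14:109099033-109099732, lay between Slitrk1 and Slitrk6, genes of neuronal surface proteins, and had 33.6. The fourth and the fifth, chr1:35048708-35049341 (27.8) and chr1:35763038-35763739 (26.8), lay in the same Plekhb2 window as the first. So 3 of the 5 came from 1 window, which also held 23 of the 450 Klf4-only members.

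The sites with the highest values of all were the same 5 in both lists, with almost the same edges. They were led by chr2:98666248-98667316, where −log10 q was 4896 with the empty vector (rank 1) and 4641 with Klf4 (rank 3). Close to it lay chr2:98662241-98662827 (855 and 783) and chr2:98664960-98665214 (593 and 602), all 1031 to 1035 kb from Lrrc4c, a netrin-G ligand gene. This stretch of chromosome 2 is known as one that collects an excess of reads in mouse sequencing data of many kinds. No list of such stretches was applied here, and its part in these values was not tested. The others were chr12:97061432-97061785 between Flrt2 and Galc (2443 and 2199, identical edges) and chr5:60042842-60043086 between Pcdh7 and G6pd2 (478 and 406). The edges of the 5 pairs differed by 0 to 6 bp, against a median of 106 bp over the 1277 desert pairs, of which 108 (8.46%) differed by at most 20 bp, against 7.30% outside deserts.

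Strong sites were also found in the middle of the longest deserts. Of 193 desert pairs with −log10 q of at least 20 in both lists, the farthest from any coding gene was chr18:28027787-28028406, 2238 kb from Pik3c3 and 2274 kb from Celf4, with values of 31.3 (empty vector) and 21.7 (Klf4). A neighbour at chr18:28077403-28078218 had 45.3 and 39.1. On chromosome 14, chr14:82243317-82243941 between Olfm4, an olfactomedin gene, and Pcdh17 had 30.4 and 23.7, and chr14:90821386-90821942 between Pcdh20 and Pcdh9 had 112 and 87.6. The last, chr1:102628088-102628346 between Cntnap5b and Cdh20, had 201 and 162. Its empty vector peak was 259 bp wide with a fold enrichment of 18.6, and the edges of the pair differed by 1 bp. Edges this close were also seen at the 5 sites with the highest values of all. The part of an excess of reads at this site was not tested. All 5 pairs had the higher −log10 q in the empty vector list, and the part of depth in this was not tested.

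Deserts were also split by the noncoding genes they hold. Of the 221 windows, 141 overlapped a lncRNA gene, 77 held noncoding genes of other kinds only, mostly pseudogenes and small RNA genes, and 3 held no annotated gene. The ratio of Klf4 to empty vector members was 0.967 (1439 empty vector and 1391 Klf4 members) with a lncRNA gene, 0.870 (407 and 354) with noncoding genes of other kinds only and 0.75 (16 and 12) with no gene, all with overlapping intervals. The Klf4-only share was 27.0% (interval 24.7 to 29.4), 20.9% (17.0 to 25.4) and 8.33% (1 of 12), against 36.7% of the whole Klf4 list. The empty vector-only share was 29.7%, 32.7% and 31.2%, against 18.8% of the whole list. All 4 windows with at least 10 more Klf4 than empty vector peaks hold a lncRNA gene. Those 4 held 83 of the 375 Klf4-only members in windows with a lncRNA gene. Windows with a lncRNA gene held more sites, 10.2 empty vector and 9.87 Klf4 peaks per window against 5.29 and 4.57 in the 80 windows without one. Few sites lay in a lncRNA gene itself, 207 empty vector members (11.1%) and 195 Klf4 members (11.1%), against 10.8% and 10.8% of peaks outside deserts.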

How the data were processed

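ATAC-seq libraries of MIN6 cells (4 with empty vector, 4 with the Klf4 plasmid) were grouped by their labels. The values come from 2 merged broadPeak lists, 1 per plasmid. The submitters' processing notes name FastQC, Bowtie2, MACS2, DiffBind and the build mm10 (GRCm38). Versions, filters, duplicate handling, read shifting and whether libraries were merged before calling are not given in the sources used here. Why the labels list an mRNA-seq library kit was not resolved. Per peak, the deposited values are a fold enrichment over local background (a ratio), −log10 p, −log10 q (p-value and q-value) and a display score that was not used. The smallest deposited −log10 q was 1.02 and 1.00.

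Peaks on Y and scaffolds were left out (215 and 227). Protein-coding gene bodies came from the RefSeq table for GRCm38.p6 (21521 genes). Its 345 rows on unlocalised or alternate sequences were left out. Peaks were members by midpoint and overlapped when they shared at least 1 bp. Distances to coding genes run from the midpoint of the peak or promoter to the gene body. Distances between peaks, and from peaks to hairpins, run between the nearest edges. The named items are, in each list, the 5 members and the 5 list-specific members with the highest −log10 q. They are also the 5 farthest pairs with −log10 q of at least 20, the 5 fullest and the 5 longest runs. 1 list-specific empty vector member is not reported here. Members, lists, bins and rules were chosen with earlier results of these data known. The planned reading of sequence at peak centres needs a genome, which was not used here, so RefSeq promoters were read instead. No test between plasmids was possible with 1 list each. Alternatives were other window sizes and origins, thresholds, widths, overlaps, gene sets, distances and chromosomes. On simulated peaks, 119 of 119 planted gene-free windows and the state of 49158 of 49158 and 54354 of 54354 peaks were recovered. The tools were pandas 2.3.3, numpy 2.4.6, matplotlib 3.10.9 and scipy 1.17.1 under Python 3.11.15.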

Additional observations from a re-analysis of the deposited data

How the results depend on the processing

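Of 117 values recomputed under alternatives, 67 stayed within the limits of the value reported, 48 moved beyond them and 2 changed side of 1. The limits were counting intervals for all but 1 measure. The covered length ratio divided by that outside has no such interval and was held to fixed limits of 0.660 to 0.729. The causes were not tested. No paired analysis was possible because each plasmid has 1 merged list with no value per library, which also means that leaving out single libraries was not run. The 150 bp alternative for sequence was not run, since no genome was used.

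The ratio of Klf4 to empty vector members (0.944) was 1.01 with 500 kb windows, the opposite side of 1, and 0.870 with 2 Mb windows. It was 0.878 at −log10 q of at least 5, 0.757 in the top 20000, 0.852 among peaks 500 bp or wider and 0.75 in the windows free of genes of every biotype, which hold 16 and 12 members. Divided by the ratio outside deserts (0.731) it was below 1 in all settings run, with 0.677 for 2 Mb windows and 0.584 for windows free of every gene. The covered length ratio divided by that outside (0.695) was 0.766 with 500 kb windows, 0.639 with 2 Mb, 0.764 in the top 20000 and 0.493 in windows free of every gene.

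Density in deserts over that outside (0.202 with the empty vector, 0.147 with Klf4) was 0.264 and 0.206 with 500 kb windows, 0.167 and 0.113 with 2 Mb, 0.178 and 0.124 at −log10 q of at least 5, 0.0793 and 0.0599 in the top 20000, 0.144 and 0.101 among peaks 500 bp or wider, and 0.137 and 0.0800 in windows free of every gene.

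Both lists were filtered before matching, so under a filter on −log10 q, rank or width a peak counts as list-specific also when its partner was filtered out, and these shares show no excess among strong peaks. The list-specific share of empty vector members, minus that outside (11.8 percentage points), was 9.56 with 500 kb windows, 15.1 at −log10 q of at least 5, 19.9 in the top 20000, 14.8 among peaks 500 bp or wider and 7.16 with overlap of 50% of both peaks. For Klf4 (-11.3 points) it was -8.58 with 500 kb windows, -18.6 with 2 Mb, -14.7 with windows from position 500000, -2.0 in the top 20000, -14.6 with overlap of 50% of the peak and -28.4 in windows free of every gene. The median −log10 q over that outside (0.705 with the empty vector, 0.755 with Klf4) was 0.763 and 0.825 in the top 20000, 0.666 and 0.849 among peaks 500 bp or wider and 0.753 and 1.01 in windows free of every gene, where the Klf4 value changed side. For Klf4 it was 0.820 at −log10 q of at least 5.

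Some settings were chosen after seeing the data. With the lists cut to equal length the member ratio was 0.683, 0.679 of that outside, the covered length ratio 0.649 of that outside, the empty vector difference in list-specific share 15.7 points and the Klf4 density 0.137 of that outside. Without the 10 fullest windows the densities were 0.174 and 0.122 of those outside and the covered length ratio 0.658 of that outside. Leaving out members with equal edges or the V segment windows moved no value beyond its limits. Depth is unknown. Of the list-specific members, 170 of 566 (empty vector) and 82 of 450 (Klf4) had a −log10 q under 2.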

Other observations

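Some gene deserts hold V segments, the gene pieces that lymphocytes join to make antibodies and T cell receptors, and which count as no protein-coding gene in the annotation used. In the 5 such windows there were 38 empty vector and 31 Klf4 peaks, of which 18 (47.4%, 95% Wilson interval 32.5 to 62.7) and 10 (32.3%, 18.6 to 49.9) were list-specific. Over all deserts the shares were 30.4% and 25.6%, and over the whole lists 18.8% and 36.7%. A single window, at 53 Mb of chromosome 14, held 25 and 23 of these peaks and 12 and 9 of the list-specific ones. The other 4 windows had 6 list-specific peaks of 13 with the empty vector (46.2%, 23.2 to 70.9) and 1 of 8 with Klf4 (12.5%, 2.24 to 47.1).

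Of 15 microRNA hairpins in the deserts, 0 were overlapped by a peak of either list, and 3 lay within 10 kb of a peak of both. Mir181a-1 and Mir181b-1, a clustered pair on chromosome 1, lay 6.60 and 6.42 kb from the nearest empty vector peak and 6.93 and 6.75 kb from the nearest Klf4 peak, with −log10 q of 4.00 and 3.81. Mir8099-2 on chromosome 12 lay 1.12 and 1.15 kb from peaks with 17.8 and 16.3. Beside Mir6343, in the window between Slc4a3 and Epha4, the nearest peaks were 125 kb (empty vector, −log10 q 3.65) and 135 kb (Klf4, 45.6) away. These are different sites. The nearest empty vector peak was list-specific. The site of the Klf4 peak had a peak in both lists, and the empty vector peak there had the higher −log10 q.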
